A study of Mus musculus with 4 samples.

Results

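Protocadherins are the largest group of cadherin-related adhesion proteins, and their genes were followed here in mouse epidermis without the catalytic activity of the Polycomb complex PRC1. With earlier results of these data known, the 70 genes whose symbols begin with Pcdh were taken by name alone from the 24453 genes counted. Of these, 58 lie in 3 gene clusters (14 Pcdha, 22 Pcdhb and 22 Pcdhg genes) and 12 are non-clustered. Sorted epidermal cells from the back skin of newborn mice (postnatal day 0) were compared between 2 control libraries (CTL) and 2 libraries (I53A) of the genotype Ring1a-/- Ring1b-/I53A. These mutant mice lacked Ring1a (gene Ring1) and carried 1 null Ring1b allele (gene Rnf2) over the I53A allele, whose product does not ubiquitinate histone H2A. The sort gate took EpCAM-positive, Sca1-positive cells with high α6-integrin, which are enriched in progenitors of the epidermis between the hair follicles. The alleles of the control mice and any Cre driver are not stated in the sources used here. Labels do not say whether the libraries of a group came from separate animals, so p-values measure only the spread between libraries.

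Each protocadherin has an extracellular part of cadherin repeats, through which cells bind one another weakly and selectively, a membrane span and a cytoplasmic tail. In the Pcdha and Pcdhg clusters each gene joins its own large variable first exon to small constant exons shared by the whole cluster, while the Pcdhb genes have a single exon. In neurons every variable exon has its own promoter, chosen at random with the help of the DNA-looping factors CTCF and cohesin, and the resulting mix of isoforms lets a neuron tell its own branches from those of others. The non-clustered genes (the delta-1 and delta-2 groups and a few others) are single genes that steer cell contact and movement in the embryo and brain. PRC1 represses developmental genes through mono-ubiquitination of histone H2A.

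Total counts ranged from 15505018 to 21543385 per library, and protocadherin genes held 0.0399% to 0.0479% of them. Ring1 stood at 24.2 and 33.3 CPM (read counts scaled to a common library size) in the controls and at 2.54 and 2.91 CPM in the mutants, while Rnf2 was not called (adjusted p = 0.681, edgeR quasi-likelihood test). Gene-level counts cannot show which Rnf2 allele was transcribed. Xist and Y-linked genes marked both controls and mutant replicate 2 as female and mutant replicate 1 as male: Ddx3y had 1868 counts in mutant replicate 1 and at most 2 in the others. The 8 markers of basal keratinocytes, the sorted cells, were abundant in every library and summed to 27495 and 31579 CPM in controls and 22519 and 19358 CPM in mutants. In this sum both mutants lay below both controls, with Krt5 at 66.0%, Krt14 at 66.8% and Col17a1 at 76.5% of control. Epcam stood at 151% of control, with both mutants above both controls, and Trp63, Itga6, Itgb4 and Ly6a overlapped between groups. By edgeR 0 of the 8 were called (adjusted p = 0.138 for Krt5, 0.0736 for Krt14 and 0.0635 for Epcam). Among markers of other cells, 7 fibroblast genes summed to 1376 and 1446 CPM in controls and 2077 and 1865 CPM in mutants (1 of 7 called higher), and 8 Schwann cell and neuron genes to 22.3 and 22.4 CPM against 39.8 and 45.7 CPM (1 of 6 tested called higher). Summed skeletal muscle markers (5 genes) moved the other way, from 6.91 and 4.44 CPM in controls to 0.573 and 2.204 CPM in mutants. Of the 3 tested, 1 was called lower, Myh4, with 57 and 21 counts in the controls and 0 in each mutant (adjusted p = 0.0193, edgeR). Tnnt3 (not called) and Myh8 (not tested) were also lower in both mutants. Acta1 overlapped between groups (0.774 and 0.994 CPM in controls, 0.509 and 1.15 CPM in mutants). Ckm had 1 and 0 counts in controls and 0 and 12 in mutants. Summed levels overlapped between groups for the endothelial (12.7 and 33.5 CPM in controls, 24.0 and 32.0 CPM in mutants), suprabasal, melanocyte, Merkel cell and immune lists. Within the immune list Ptprc stood at 10.8 and 11.6 CPM in controls and 16.9 and 27.0 CPM in mutants (adjusted p = 0.0677, edgeR, not called). Cd74 and Tyrobp overlapped, and Cd3e (not tested) was lower in both mutants. The part of these lists in the results on protocadherins was not tested. In bulk RNA a change in the share of a cell type and a change in RNA per cell cannot be told apart.

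Mutant epidermis carried more Pcdh1 and Pcdh17 and less Pcdh7 and Pcdh20 than control epidermis, and no clustered protocadherin passed the test. The comparison asked whether loss of PRC1 activity changes these adhesion genes. Of the 70 members, 49 passed the low-count filter (40 clustered and 9 non-clustered), 44 of which the control libraries alone would have kept. Among the 9 tested non-clustered genes 2 rose, 2 fell and 5 did not pass (edgeR quasi-likelihood test at an adjusted p under 0.05, by Benjamini-Hochberg over 14550 genes). Over all tested genes 6.71% were called, 5.68% higher and 1.04% lower in the mutant. The share over all 49 tested protocadherin genes was 8.16%, which is near that and is not a result about the family. Among the 40 tested clustered genes 0 were called with edgeR, 0 higher and 6 lower had an unadjusted p under 0.05, DESeq2 called 1 lower and limma-voom called 0. The median absolute log2 fold change was 1.19 over the 9 tested non-clustered genes, 0.51 over the 40 clustered genes and 0.26 over all tested genes. Low-count genes have larger errors in this measure. The median level was 4.05 CPM over the clustered genes and 25.03 CPM over the non-clustered ones. The control libraries alone would have kept 36 of the 40 clustered and 8 of the 9 non-clustered genes.

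**Figure D1:**
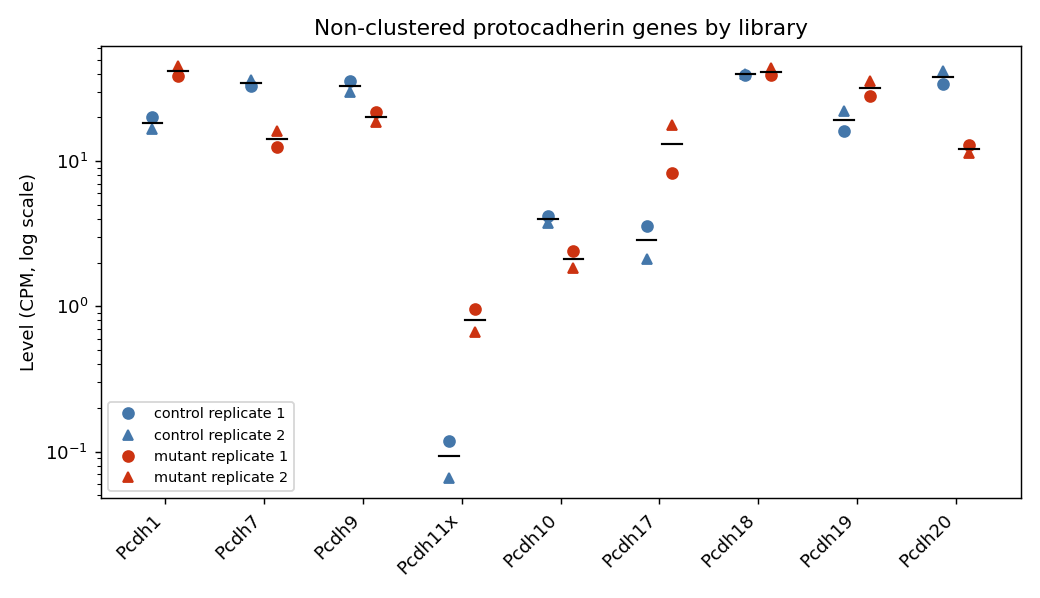
Level of the 9 tested non-clustered protocadherin genes in each library, in CPM on a log axis. Points are libraries (circle, replicate 1; triangle, replicate 2; blue, control; red, mutant) and bars are group means. Pcdh1 and Pcdh17 were higher and Pcdh7 and Pcdh20 lower in both mutant libraries, while Pcdh18 lay between 38.9 and 43.7 CPM in all 4.

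Pcdh1, a delta-1 protocadherin known from airway epithelium, lies outside the clusters but also on chromosome 18 (GRCm38, 38185914 to 38212053). It stood at 20.0 and 16.7 CPM in control replicates 1 and 2 and at 38.6 and 44.9 CPM in mutant replicates 1 and 2. Both mutant libraries lay above both controls. Its mean rose from 18.3 ± 2.33 to 41.7 ± 4.42 CPM (SD, n = 2 each), 2.28-fold (log2 fold change 1.19, SE 0.20, edgeR adjusted p = 0.00556). Without control replicate 1 or 2 the adjusted p was 0.0651 and 0.116.

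Pcdh17, a delta-2 protocadherin that guides the growth of axon bundles and binds the actin-regulating WAVE complex, lies on chromosome 14 (84443563 to 84539002). It had 60 and 32 counts in the controls and 131 and 404 in the mutants, which are 3.57 and 2.12 CPM against 8.33 and 17.8 CPM. The groups did not overlap, but the mutant libraries differed 2.14-fold from each other. The mean rose 4.65-fold, from 2.85 ± 1.03 to 13.1 ± 6.70 CPM (SD, n = 2 libraries per group), with an edgeR adjusted p of 0.0164 (log2 fold change 2.22, SE 0.46). Without control replicate 1 or 2 the adjusted p was 0.0933 and 0.185. Schwann cell and neuron markers were higher in the same libraries, as given above.

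Pcdh20, a non-clustered protocadherin outside the delta groups, lies on chromosome 14 (88464743 to 88471396) and was among the more abundant members in control epidermis. It stood at 33.8 and 42.0 CPM in the controls and at 12.98 and 11.3 CPM in the mutants. Every mutant value was below every control value. Its mean fell from 37.9 ± 5.80 to 12.2 ± 1.17 CPM (SD, n = 2 each), to 32.1% of control (log2 fold change -1.65 ± 0.22, SE, adjusted p = 0.0014, edgeR quasi-likelihood test). Of the 4 called protocadherins only Pcdh20 stayed called whichever library was left out, with edgeR adjusted p from 0.000167 to 0.0442.

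Pcdh7, a delta-1 protocadherin also called NF-protocadherin, which acts in cell sheets of embryonic skin and in axon growth, lies on chromosome 5 (57717967 to 58133230). It stood at 32.7 and 36.4 CPM in the controls and at 12.5 and 16.1 CPM in the mutants, again with no overlap. The mean fell from 34.6 ± 2.66 to 14.3 ± 2.59 CPM (SD, n = 2 each), to 41.4% of control (log2 fold change -1.26 ± 0.22, SE, adjusted p = 0.00615, edgeR quasi-likelihood test). Without control replicate 1 or 2 the adjusted p was 0.0721 and 0.108. The antisense gene 4932441J04Rik shares 2235 exon bases with Pcdh7 in GENCODE M21, and it had 3 counts in control replicate 1 and 0 in the others.

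The 2 called delta-1 genes thus moved in opposite directions, and the remaining tested members of both delta groups did not pass. Pcdh9, the delta-1 gene known from brain circuits, stood at 35.5 and 30.0 CPM in the controls and 21.8 and 18.6 CPM in the mutants (log2 fold change -0.71 ± 0.20, adjusted p = 0.0739, edgeR quasi-likelihood test). Its groups did not overlap, and it missed the threshold in this fit. With each library left out in turn its log2 fold change ranged from -0.82 to -0.57.

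Pcdh11x, the X-linked delta-1 gene, had 2 and 1 counts in the controls and 15 in each mutant. The ratio of pooled counts, scaled to library size, was 8.30 with an exact 95% interval from 2.58 to 42.5, which covers counting error only. It was not called (adjusted p = 0.134, edgeR), and it passed the filter only through the mutant libraries.

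Among delta-2 genes, Pcdh19, the X-linked gene whose loss causes epilepsy in girls, stood at 16.3 and 22.1 CPM in the controls and 28.1 and 35.6 CPM in the mutants (log2 fold change 0.74 ± 0.23, adjusted p = 0.0937, edgeR quasi-likelihood test). The male mutant library was the lower of the mutant pair. Without that library, between female libraries alone, the log2 fold change was 0.90, with the single mutant library assumed to vary like the controls. Without control replicate 1, control replicate 2 or mutant replicate 2 it was 0.53, 0.97 and 0.56.

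Pcdh18, a delta-2 gene of embryonic mesoderm, was level across the study, at 39.5 and 39.9 CPM in the controls and 38.9 and 43.7 CPM in the mutants (log2 fold change 0.06 ± 0.17, adjusted p = 0.911, edgeR). Its sign turned without mutant replicate 2 (-0.03). Pcdh10, a delta-2 gene of axon pathways, stood at 4.17 and 3.78 CPM in the controls and 2.42 and 1.85 CPM in the mutants, without overlap but short of the threshold (log2 fold change -0.92 ± 0.44, adjusted p = 0.306, edgeR). In all, 8 of the 9 tested non-clustered genes had groups that did not overlap, 4 in each direction. Of the 4 higher, Pcdh11x had passed the filter only through the mutant libraries. Over all tested genes 47.9% had groups apart, 24.5% higher and 23.5% lower in the mutant.

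The other 3 non-clustered genes were too low to test. Pcdh12, an endothelial protocadherin, had 6 and 1 counts in controls and 7 and 17 in mutants. Pcdh15, part of the tip links of hair cells in the inner ear, had 3, 5, 6 and 6. Pcdh8, the delta-2 gene also called arcadlin, had 0 and 0 in controls and 1 in each mutant, under the floor of 3 counts per library (0.132 to 0.199 CPM).

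Genes repressed by Polycomb complexes usually have promoters rich in CG dinucleotides, so the windows before the start of the called genes were read. The RefSeq table (GRCm38.p6) held a window for 9 of the 70 members, all non-clustered, with Pcdh17, Pcdh20 and Pcdh7 among them but not Pcdh1. Printed here are those of Pcdh17, which rose, of Pcdh20 and Pcdh7, which fell, and of Pcdh18, which was level, with each CG in capitals. They run 5′ to 3′ on the gene's strand and stop before the first start in RefSeq or GENCODE M21: chr14:84443313-84443562 on the plus strand for Pcdh17, chr14:88471397-88471646 on the minus strand for Pcdh20, chr5:57717831-57717966 on the plus strand for Pcdh7 and chr3:49757326-49757566 on the minus strand for Pcdh18.
Pcdh17: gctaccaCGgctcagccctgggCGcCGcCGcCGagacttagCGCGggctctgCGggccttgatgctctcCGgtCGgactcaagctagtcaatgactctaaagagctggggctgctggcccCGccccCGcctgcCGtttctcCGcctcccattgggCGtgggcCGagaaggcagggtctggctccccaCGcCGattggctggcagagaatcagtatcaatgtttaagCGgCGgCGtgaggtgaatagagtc
Pcdh20: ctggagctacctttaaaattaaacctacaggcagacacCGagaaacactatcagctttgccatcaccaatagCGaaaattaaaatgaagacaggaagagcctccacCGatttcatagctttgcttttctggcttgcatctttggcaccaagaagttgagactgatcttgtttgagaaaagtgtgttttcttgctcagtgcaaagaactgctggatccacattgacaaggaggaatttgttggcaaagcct
Pcdh7: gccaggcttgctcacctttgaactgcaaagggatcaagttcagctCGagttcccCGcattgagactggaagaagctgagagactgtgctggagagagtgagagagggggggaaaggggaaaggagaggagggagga
Pcdh18: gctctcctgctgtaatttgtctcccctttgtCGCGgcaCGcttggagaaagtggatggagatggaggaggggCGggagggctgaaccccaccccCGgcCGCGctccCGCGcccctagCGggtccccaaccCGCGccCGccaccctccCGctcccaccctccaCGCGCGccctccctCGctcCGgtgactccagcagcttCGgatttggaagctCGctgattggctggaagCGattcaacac

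Over the 250 bases before the RefSeq start, the motif CG (which reads the same on both strands) occurred 21 times in Pcdh17 and 23 times in Pcdh18, but 3 times in Pcdh20 and 7 times in Pcdh7. The median over all 32851 windows in the table was 6. At least as many CGs as in Pcdh17 were found in 16.3% of all windows, as in Pcdh18 in 13.3%, as in Pcdh7 in 46.3% and as in Pcdh20 in 71.0%. Of the other members short of the threshold, Pcdh10 held 22 and Pcdh9 18, and each was lower in both mutant libraries. Pcdh19 held 16 and was higher in both. The relation of these counts to the changes was not tested. These counts describe windows of sequence at 1 annotated start per gene. For Pcdh7 the printed part holds 136 of the 250 bases counted, and for Pcdh18 241. The rest of each window lies past the start in GENCODE M21 and was counted but not printed.

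**Figure D2:**
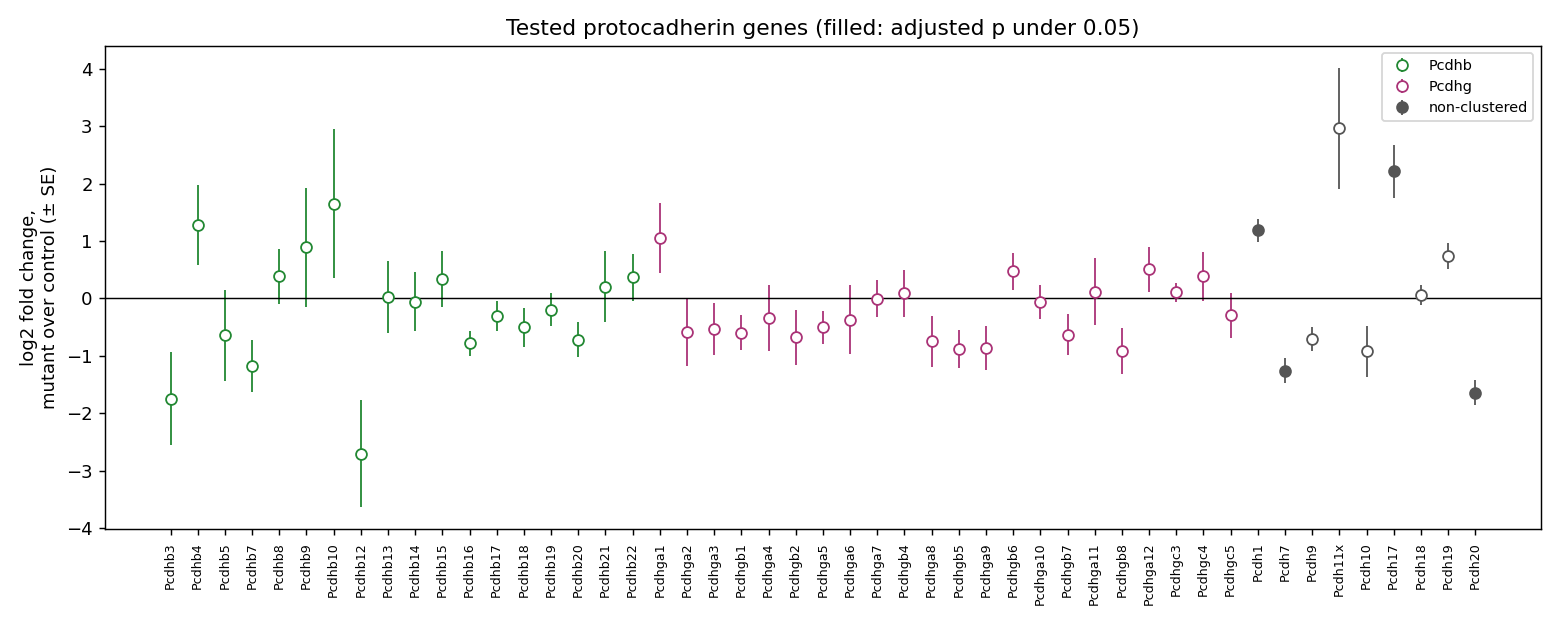
Log2 fold change, mutant over control, of the 49 tested protocadherin genes with its standard error. Pcdhb and Pcdhg genes are in their order along chromosome 18, followed by the non-clustered genes; filled points passed the test. The 4 filled points are all non-clustered, and the standard errors are widest for low genes such as Pcdhb10.

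The clusters lie side by side on chromosome 18 of GRCm38, from 36930184 to 37841873, a span of 912 kb. In GENCODE M21 each of the 13 matched Pcdha genes shares 2860 to 2864 exon bases with other members and each Pcdhg gene 2116 to 3157, mostly in the constant exons. Reads there cannot be given to 1 gene, and how the authors' counting treated them is not stated in the sources used here, so the clustered levels may reflect the variable exons alone.

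Pcdha genes were nearly silent on these counts. The 14 genes together had 10 and 22 counts in the controls and 15 and 14 in the mutants, and none passed the filter. Of those, 17 of the 22 in control replicate 2 were in Pcdha5, which had 0 counts in control replicate 1 and 0 and 3 in the mutants. Pcdhac2, a C-type gene that most neurons use without random choice, had 1 and 0 counts in controls and 9 and 8 in mutants. Pcdha4, Pcdha6 and Pcdha7 had no read in any library.

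Pcdhb genes were expressed at low levels across the cluster, and 19 to 22 of the 22 genes had a read in each library. Their summed level was 95.5 and 107 CPM in the controls and 78.5 and 76.1 CPM in the mutants, with both mutants below both controls. The means were 101 ± 7.97 and 77.3 ± 1.70 CPM (SD, n = 2 each), a ratio of 0.765, given with no test. Over the single genes the balance was closer: 10 of the 18 tested genes had a log2 fold change below 0 and 8 above, with a median log2 fold change of -0.13 (-0.01 over all tested genes).

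Pcdhb16 was the most abundant Pcdhb gene and carried the largest part of that difference. It stood at 27.1 and 34.3 CPM in the controls and 19.1 and 16.7 CPM in the mutants, with no overlap (log2 fold change -0.78 ± 0.22, SE, adjusted p = 0.0607, edgeR quasi-likelihood test). It held 28.4% and 32.1% of the Pcdhb counts in the controls (exact 95% intervals 26.2 to 30.7 and 29.8 to 34.4) and 24.3% and 21.9% in the mutants (21.9 to 26.8 and 20.0 to 23.9). DESeq2 called it lower (adjusted p = 0.0355), as did edgeR without a low-count filter (0.0467), while limma-voom did not (0.0686). With each library left out in turn its log2 fold change ranged from -0.94 to -0.61.

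The next most abundant Pcdhb genes did not pass. Pcdhb17 stood at 15.2 and 11.8 CPM in the controls and 10.8 and 11.2 CPM in the mutants (log2 fold change -0.30 ± 0.26, adjusted p = 0.632, edgeR). Pcdhb20 stood at 10.2 and 14.2 CPM against 6.55 and 8.02 CPM (-0.72 ± 0.30, adjusted p = 0.233, edgeR).

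Several low Pcdhb genes differed as much between libraries of a group as between groups. Pcdhb10 had 11 and 0 counts in the controls and 0 and 43 in the mutants, Pcdhb9 had 16 and 4 against 38 and 6, and Pcdhb3 had 51 and 11 against 8 and 14. Such genes were chosen for naming after their values were seen. Pcdhb12 had 11 and 28 counts in the controls and 3 and 4 in the mutants, the lowest log2 fold change of all tested members (-2.70 ± 0.94, adjusted p = 0.131, edgeR), and was short of the threshold. Of the windows of 100 bases, the read length, in these transcripts, 2.03% of those in Pcdhb10, 1.15% in Pcdhb9, 0.545% in Pcdhb12 and 0% in Pcdhb3 recurred exactly in another protocadherin. The highest share of the cluster was 7.73%, in Pcdhb21, whose exon overlaps that of Pcdhb22.

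All 22 Pcdhg genes were tested, and each had at least 10 counts in every library. Their summed level was 169 and 190 CPM in the controls and 160 and 159 CPM in the mutants, with 7 genes above 0, 15 below and a median log2 fold change of -0.36. The 12 A-type genes (Pcdhga) summed to 56.5 and 67.0 CPM in the controls and 56.2 and 50.6 CPM in the mutants. The 7 B-type genes (Pcdhgb) summed to 51.0 and 65.2 CPM against 43.3 and 40.9 CPM, a ratio of means of 0.725. The 3 C-type genes (Pcdhgc3, Pcdhgc4 and Pcdhgc5) summed to 61.3 and 58.0 CPM against 60.6 and 67.8 CPM, a ratio of 1.08. Both mutant libraries lay below both controls for the B type and, by a narrow margin, for the A type, and the groups overlapped for the C type. None of these sums was tested.

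**Figure D3:**
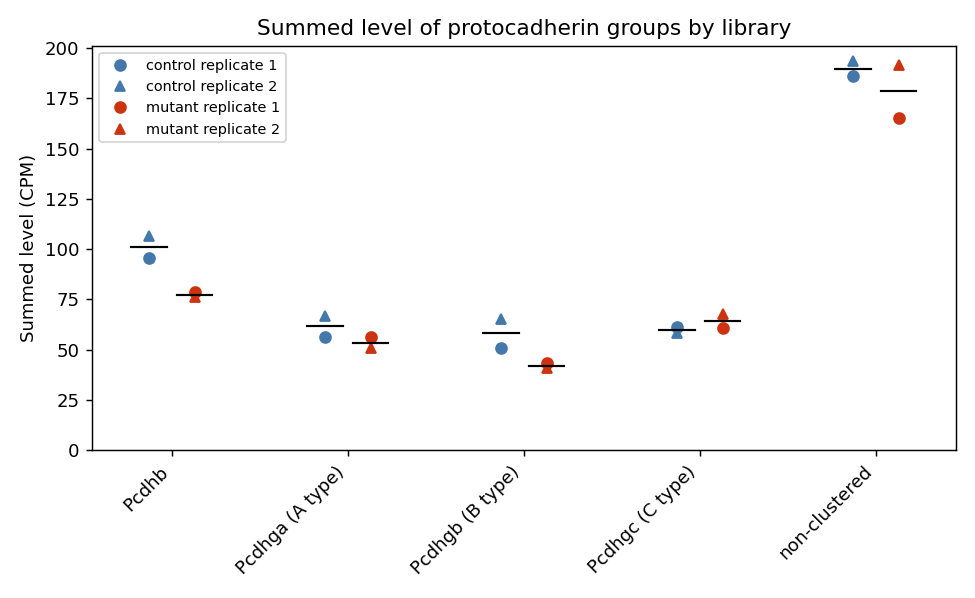
Summed level, in CPM, of the Pcdhb genes, the 3 types of Pcdhg gene and the 12 non-clustered genes in each library. Points are libraries (circle, replicate 1; triangle, replicate 2; blue, control; red, mutant) and bars are group means. Pcdhb, A-type and B-type sums were lower in both mutants than in both controls, while C-type and non-clustered sums overlapped.

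Pcdhgc3, the C-type gene expressed most widely outside the brain, was the most abundant clustered member, with 49.9 and 51.4 CPM in the controls and 50.8 and 58.1 CPM in the mutants (log2 fold change 0.11 ± 0.16, adjusted p = 0.8095, edgeR quasi-likelihood test). Per kilobase of exon shared with no other gene, it was also the highest of all matched protocadherins in controls, at 15.0 CPM per kb. Pcdhgb1 followed at 7.76 CPM per kb, Pcdh18 at 7.39, Pcdh20 at 6.90 and Pcdhb16 at 5.88. In the mutants Pcdh20 stood at 2.21 CPM per kb, below Pcdh1 at 4.75, which had been at 2.09 in controls. Pcdhgc3 held 29.6% and 27.0% of Pcdhg counts in the controls and 31.7% and 36.4% in the mutants.

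Pcdhgb1 stood at 15.5 and 25.2 CPM in the controls and 16.6 and 10.7 CPM in the mutants, overlapping between groups (log2 fold change -0.59 ± 0.31, adjusted p = 0.351, edgeR). Pcdhga10 stood at 12.6 and 8.35 CPM against 10.6 and 9.74 CPM (-0.05 ± 0.30, adjusted p = 0.956, edgeR), and its sign depended on the library left out. Pcdhgb5, Pcdhgb8 and Pcdhga9, named after their values were seen, had the lowest log2 fold changes of the cluster, -0.88, -0.91 and -0.86 (adjusted p = 0.175, 0.260 and 0.269, edgeR). Over all 40 tested clustered genes 55.0% had groups apart, 6 higher and 16 lower, beside 47.9% over all tested genes (24.5% higher and 23.5% lower).

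Both mutants lay above both controls in 3 of the 22 Pcdhg genes and below both in 9, and 10 overlapped. Over all tested genes 24.5% had both mutants above and 23.5% below. The 3 higher Pcdhg genes were Pcdhga1, Pcdhga12 and Pcdhgb6, and each was short of the threshold. These genes, and Pcdhga11, Pcdhgb7 and Pcdhgb8 beside them, were named after their values were seen. Pcdhga1, the first gene of the cluster, stood at 1.19 and 0.994 CPM in the controls and 1.46 and 2.91 CPM in the mutants, the highest log2 fold change among Pcdhg genes (1.06 ± 0.60, adjusted p = 0.414, edgeR). Pcdhga12 stood at 3.33 and 3.38 CPM against 4.84 and 4.72 CPM, with close replicates and no overlap, and Pcdhgb6 at 5.54 and 5.96 CPM against 8.40 and 7.62 CPM. Pcdhga11 showed the widest replicate spread of the cluster among mutants, with 184 counts in replicate 1 and 59 in replicate 2, around control counts of 86 and 110. Its neighbours on the chromosome, Pcdhgb7 and Pcdhgb8, had 61 and 101 and 35 and 74 counts in the same mutants, without that pattern.

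Partners, regulators and relatives of protocadherins (the listed partners below) were read from a list of 68 symbols. Of these, 19 were other large cadherins, which are relatives and not partners. Of the whole list 57 were tested: 3 rose, 2 fell and 52 did not pass. That share is near the 6.71% called over all tested genes and is not a result about the list. The 16 regulators of promoter choice in the clusters, among them Ctcf, the cohesin genes Rad21, Smc1a and Smc3, and the silencers Smchd1, Setdb1 and Dnmt3b, had 0 called genes with edgeR, and their median log2 fold change was -0.15. At an unadjusted p under 0.05 edgeR had 0 higher and 2 lower, and DESeq2 and limma-voom each called 0. Of the 8 partners of Pcdh15 in hair cells 4 were tested, with 0 called by edgeR, DESeq2 or limma-voom and 0 at an unadjusted p under 0.05.

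Among the other large cadherins 14 were tested: 2 rose, 1 fell and 11 did not pass, beside 6.71% called over all tested genes. The largest change on the list was in Dchs1, of the Fat and Dachsous family, which sets planar polarity in epithelia. Fat1, Fat2 and Fat3 of that family were not called (log2 fold change -0.13, -0.43 and 1.30). Dchs1, the ligand, stood at 3.39 and 5.43 CPM in the controls and 75.1 and 67.9 CPM in the mutants. It rose from a low level to one above that of every protocadherin gene in the same libraries, in CPM. The mean went from 4.41 ± 1.44 to 71.5 ± 5.11 CPM (SD, n = 2 libraries per group), with an edgeR adjusted p of 2.52e-05 (log2 fold change 4.03, SE 0.25). The call held whichever library was left out, with adjusted p of at most 0.00309. Fat4, its receptor, moved the other way, from 59.9 and 57.5 CPM in the controls to 27.2 and 35.9 CPM in the mutants (log2 fold change -0.89 ± 0.19, adjusted p = 0.0171, edgeR). Clstn3, a calsyntenin of synapses, rose from 0.476 and 0.663 CPM to 3.50 and 5.69 CPM (log2 fold change 3.05 ± 0.61, adjusted p = 0.014, edgeR) and would not have passed the filter on the controls alone.

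Among intracellular partners 1 of 23 tested rose and 1 fell, also near the 6.71% called over all tested genes. Bin1, a membrane-bending BAR-domain protein, stood at 4.58 and 5.37 CPM in the controls and 11.96 and 14.6 CPM in the mutants (log2 fold change 1.43 ± 0.31, adjusted p = 0.019, edgeR). Map2k6, a kinase that activates p38, stood at 45.1 and 34.5 CPM against 15.0 and 17.2 CPM (log2 fold change -1.30 ± 0.21, adjusted p = 0.00487, edgeR). The WAVE complex genes (Wasf1, Wasf2, Cyfip1, Cyfip2, Nckap1, Nckap1l, Abi1, Abi2 and Brk1), through which Pcdh17 acts on actin, had 0 of 9 members called by edgeR, DESeq2 or limma-voom, and by edgeR 1 higher and 0 lower at an unadjusted p under 0.05. Of the 5 called partners only Dchs1 stayed called whichever library was left out: Bin1, Clstn3 and Fat4 missed it without control replicate 1 (adjusted p = 0.222, 0.162 and 0.202) and without control replicate 2 (0.135, 0.110 and 0.157), and Map2k6 without control replicate 1 (0.122).

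**Figure D4:**
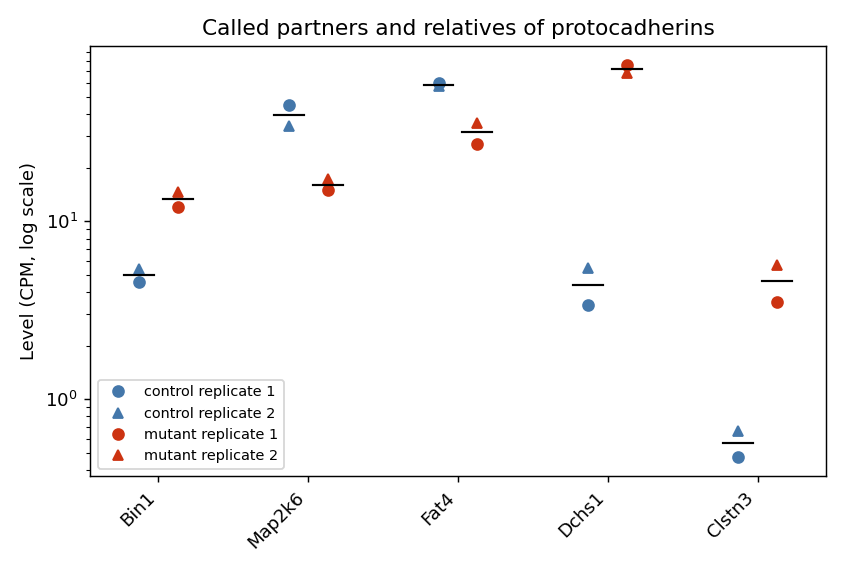
Level of the 5 called partners and relatives of protocadherins in each library, in CPM on a log axis. Points are libraries (circle, replicate 1; triangle, replicate 2; blue, control; red, mutant) and bars are group means. Dchs1, Bin1 and Clstn3 were higher and Fat4 and Map2k6 lower in both mutant libraries.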

How the data were processed

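Per the labels' protocols, RNA of the sorted cells (10 ng) was amplified and sequenced as single reads of 100 bases. The deposited files hold whole-number read counts per gene, with no normalization by the authors, for 2 control and 2 mutant libraries. The build in the submitters' processing notes is mm10, and the tools are HTSeq 0.6.1, TopHat2 2.0.13, DESeq2 1.6.3 and Cufflinks 2.2.1, without their role. Annotation and strand setting are not stated there.

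Genes were filtered with filterByExpr (minimum count 10, minimum total 15), which left 14550 of 24453 genes, and scaled with TMM. Groups were compared over all of them with edgeR 4.0.16 in R 4.3.3 (quasi-likelihood test, no block, two-sided, Benjamini-Hochberg adjusted p under 0.05). SE is the coefficient divided by the root of its F statistic. CPM is the count over the TMM-scaled library size. Intervals and floors cover counting error only.

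The members and lists were chosen with earlier results of these data known. Named are the called members, all tested non-clustered genes, the 3 most abundant tested genes of each cluster, called list genes, Ring1 and Rnf2. Others were named after their values were seen. Positions, exons, GC content and length came from GENCODE M21 (GRCm38, also called mm10), which matched 69 of the 70 symbols. Alternatives were upper-quartile and RLE scaling, DESeq2 1.42.0, limma 3.58.1 with voom, other filters, each library left out (on the same genes), the replicate number as a block, and loess offsets (span 0.5) for GC content and length. The earlier quasi-likelihood fit was added after seeing the data.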

Additional observations from a re-analysis of the deposited data

How the results depend on the processing

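Limits are the 2 libraries per group and the low level of the clustered genes (median 4.05 CPM). The calls of Pcdh1, Pcdh17, Pcdh7 and Pcdh20 held under both other scalings, both other filters, DESeq2, limma-voom, the offsets and the earlier quasi-likelihood fit. With each library left out in turn, 0 to 3 non-clustered protocadherins were called higher and 1 to 3 lower, 0 clustered ones higher and 0 to 1 lower, 258 to 1131 of all genes higher and 34 to 389 lower, and 1 to 4 of the listed partners higher and 0 to 4 lower. The log2 ratio of summed levels ranged in this way from -0.89 to 0.40 for Pcdha, -0.47 to -0.30 for Pcdhb, -0.25 to -0.079 for Pcdhg and -0.20 to 0.013 for the non-clustered genes. Clustered genes called lower numbered 1 with no low-count filter, 1 with DESeq2 and 1 with the replicate block (Pcdhb16 in each), and 2 with the block and the offsets for GC content and length together (Pcdhb16 and Pcdhgb5). Of all genes, DESeq2 called 229 lower. Without the most abundant member, the log2 ratio of sums was 0.64 for Pcdha (without Pcdha5), -0.24 for Pcdhb (without Pcdhb16) and -0.29 for Pcdhg (without Pcdhgc3), against -0.39, -0.39 and -0.17. The cause was not tested. Named genes that turned sign were Pcdh18 (-0.028 to 0.15 with 1 library left out, negative without mutant replicate 2) and Pcdhga10 (-0.31 to 0.28, positive without control replicate 1 and, at 0.01, without mutant replicate 2).

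Same-numbered libraries did not deviate together (correlation 0.04 across genes), so the numbers were not taken to pair the samples. With the replicate block 1042 of all genes were called higher and 232 lower, 3 non-clustered protocadherins higher and 2 lower, and 4 partners higher and 2 lower. With the block and the offsets for GC content and length together, 1242 of all genes were higher and 401 lower, 4 of the partners were lower, and 3 non-clustered protocadherins were higher (Pcdh1, Pcdh17 and Pcdh19) and 3 lower (Pcdh7, Pcdh20 and Pcdh9, the last at an edgeR adjusted p of 0.0246). Pcdh19 passed with the block (adjusted p = 0.0427, edgeR).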
